A study of Homo sapiens with 8 samples.

Results

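The transcription factor p53 switches on genes that stop the cell cycle, repair DNA or start cell death, and 9 of its best known targets were followed here: CDKN1A, GADD45A, MDM2, BBC3, BAX, FAS, SESN1, TP53I3 and GDF15. The members were taken by gene symbol, from a list chosen with earlier results of these data known. All 9 were found among the 25411 genes listed in each RNA-Seq library. BEAS-2B is a human bronchial epithelial line that was immortalised with viral oncogenes. There were 8 libraries, 2 biological replicates in each of 4 groups. The UT cells had no nickel. The Ni-E cells were grown with 100 µM NiCl2 for 6 weeks. The Ni-W cells had the same 6 weeks of NiCl2. Colonies that each arose from an individual cell were then kept growing free of nickel for over 6 months. The paper states that a single such population, picked at random, served as Ni-W. Its 2 libraries are replicates of that population, so variation between clones was not sampled. The HCl3 cells are labelled with the treatment of Ni-W. How long they grew without nickel, and how they relate to the Ni-W population, is not given in the sources used here. By their labels Ni-W and HCl3 both descend from single cells, and no cloning is given for UT and Ni-E, so that washout, cloning and time in culture cannot be told apart.

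In most cells p53 protein is kept scarce by MDM2, a ubiquitin ligase that marks it for destruction, and MDM2 is itself a p53 target, so the pair form a feedback loop. DNA damage, oxidants and some metals stabilise p53. The large T antigen of SV40, with which BEAS-2B was immortalised, binds p53 and blunts its work on target genes. Several of the targets also answer to other factors: GDF15, SESN2 and GADD45A, for example, are induced by ATF4 in the integrated stress response, so their RNA is no direct measure of p53.

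p53 binds DNA as a tetramer on a pair of 10-base half-sites, each with a core C and G, separated by 0 to 13 bases. The promoter windows of RefSeq (GRCh38.p14), from 250 bases before to 50 after a start site, were searched for such pairs with at most 3 mismatches in all to the p53 half-site consensus, which is a palindrome and so covers both strands. Of the members 8 matched a gene of the table, with 15 windows between them, and GADD45A has no entry in it. A pair of half-sites was found for 4 of the 8 genes (50%), against 15.3% of 27305 genes, and in 5 of the 15 windows (33.3%), against 12.8% of 35093 windows. The members have more windows per gene than the table as a whole, and 2 of their 5 windows with a match hold the same MDM2 site. With at most 1 mismatch in each half-site, 2 of 15 windows were left (13.3%), both of them MDM2 windows with the same site, against 1.84% of all windows. These are matches of letters and not measured binding. The looser limit was put first after a trial of the stricter one had missed a known site. The 4 sites shown are those of the 4 member genes with a match. They are written in the direction of the gene, with the half-sites in capitals.
MDM2: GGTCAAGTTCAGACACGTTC
FAS: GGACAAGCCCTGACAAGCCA
SESN1: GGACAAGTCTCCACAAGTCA
GDF15: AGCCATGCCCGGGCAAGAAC

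The MDM2 site (chr12:68808923-68808942, plus strand) begins 94 bases before the nearer start and has 2 mismatches. The FAS site (chr10:88991309-88991328, plus strand) begins 122 bases before a start and also has 2. The SESN1 site (chr6:109009018-109009037, minus strand) begins 49 bases before a start and has 3. The GDF15 site (chr19:18386186-18386205, plus strand) begins at base 29 of the transcript and has 3. The 250 bases before the MDM2 start (chr12:68808767-68809016) are given whole, with the site in capitals. MDM2 is the member that p53 is known to drive from an internal promoter. The MDM2 window holds 3 half-sites with at most 1 mismatch each, and capitals mark only the 2 that form the pair.
MDM2 upstream: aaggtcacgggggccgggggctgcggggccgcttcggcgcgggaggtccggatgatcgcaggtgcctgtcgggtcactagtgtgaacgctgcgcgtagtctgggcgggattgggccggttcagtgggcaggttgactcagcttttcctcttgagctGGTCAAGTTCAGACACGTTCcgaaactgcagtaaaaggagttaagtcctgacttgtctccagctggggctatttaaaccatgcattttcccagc

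The windows of CDKN1A, BBC3, BAX and TP53I3 held no match, which says only that these letters are not within the window. Among 37 further p53 targets described later, 30 had an entry and 9 of these (30%) a pair of half-sites. The closest match of all the listed genes was that of DDB2, a subunit of the complex that finds ultraviolet damage (chr11:47214979-47214999, plus strand, beginning at base 6 of a transcript, 0 mismatches, 1 base between the half-sites).
DDB2: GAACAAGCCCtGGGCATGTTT

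Levels are given as RPKM, reads per kilobase of transcript scaled to the library's mapped reads, in the order replicate 1 and replicate 2. Changes are log2 fold changes of read counts with their standard error, each from a DESeq2 fit of the 4 libraries of that comparison with adjustment over all genes tested. A gene was called when its adjusted p was under 0.05 and its change at least 1.5-fold. With 2 libraries a group, an exact permutation test of a single gene cannot go below p = 0.333, so each p below comes from the fit across genes. The 3 comparisons with UT share its 2 libraries. The libraries held 26383920 to 45692298 reads in genes, and the intervals given cover the spread between libraries as the fit models it. For Ni-W the intervals and p values do not cover variation between clones, since both libraries come from the same expanded population.

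CDKN1A, the cyclin-dependent kinase inhibitor p21 that halts cells in G1, was higher in all 3 nickel-treated groups (chr6:36646487-36655116 in hg19, plus strand). UT had 25.9 and 22.9 RPKM, Ni-E 189 and 123, Ni-W 55.8 and 48.7, and HCl3 62.8 and 63.0. No group overlapped another. CDKN1A rose 6.18-fold in Ni-E (95% interval 3.93 to 9.7, log2 fold change 2.63 ± 0.33, adjusted p = 1.02e-12). It was still higher than in UT after washout, with log2 fold changes of 1.06 ± 0.12 for Ni-W (adjusted p = 1.19e-16) and 1.31 ± 0.10 for HCl3 (adjusted p = 6.97e-34). From Ni-E to Ni-W it fell by 1.58 ± 0.34 (adjusted p = 2.25e-05), so the level in washed-out cells lay between those of untreated and exposed cells. HCl3 differed from Ni-W by 0.25 ± 0.09, which is under 1.5-fold (adjusted p = 0.0218). The calls of CDKN1A held without any one library.

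GADD45A, a stress sensor that acts on growth arrest and repair, took another course (chr1:68150860-68154021, plus strand). Its levels were 25.95 and 27.4 RPKM in UT. They were 37.8 and 33.0 in Ni-E, and after washout Ni-W had 20.9 and 20.7, and HCl3 27.7 and 28.0. The change with nickel, 0.35 ± 0.14, did not pass the test (adjusted p = 0.0729). Ni-W was the lowest group, 0.76 below Ni-E (−0.76 ± 0.13, adjusted p = 1.97e-08, called) and below UT by less than 1.5-fold (−0.40 ± 0.13, adjusted p = 0.00892). HCl3 lay at the level of UT, with a difference of 0.01 ± 0.12 (fold 1, 95% interval 0.858 to 1.18).

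MDM2, the ligase that limits p53, rose in Ni-E and was back near the UT level in both washed-out groups (chr12:69202797-69239324 in hg19, plus strand). It measured 14.9 and 17.7 RPKM in UT and 29.0 and 23.4 in Ni-E. After washout Ni-W had 15.6 and 16.7 and HCl3 16.8 and 15.4, all within the range of the UT libraries. The rise in Ni-E was 0.62 ± 0.14 (1.53-fold, 95% interval 1.27 to 1.85, adjusted p = 0.00028), close to the 1.5-fold limit. That call was lost without UT replicate 1 (0.50, adjusted p = 0.038) and without Ni-E replicate 1 (0.44, adjusted p = 0.197). From Ni-E to Ni-W MDM2 fell by 0.68 (−0.68 ± 0.12, adjusted p = 8.64e-08), a change under 1.5-fold without Ni-E replicate 1 (−0.51, adjusted p = 0.000774). The differences from UT were −0.05 ± 0.12 in Ni-W and −0.08 ± 0.11 in HCl3 (adjusted p = 0.818 and 0.639). With GC and length trends removed, HCl3 was lower than UT by under 1.5-fold (adjusted p = 0.0289). So was Ni-W with those trends removed and replicates blocked (adjusted p = 0.000924).

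**Figure D1:**
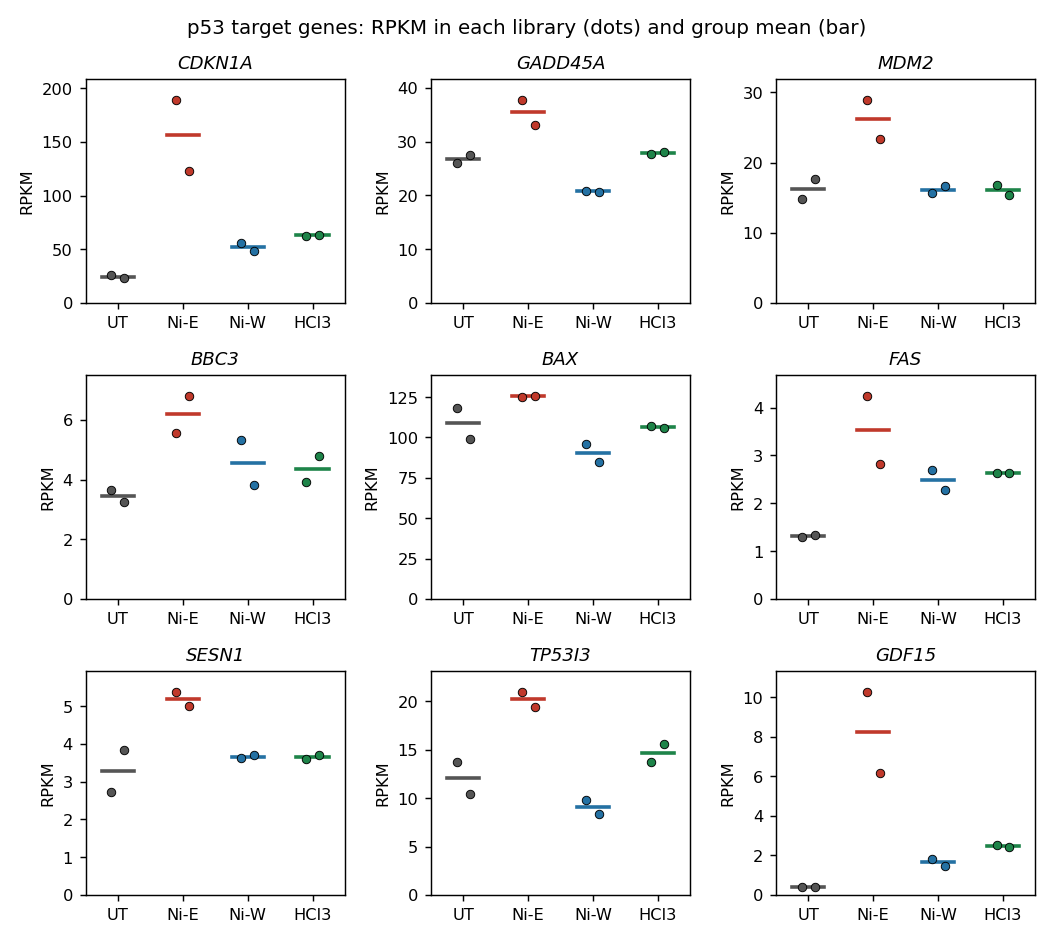
RPKM of the 9 p53 target genes in each library (dots, 2 per group) with the group mean (horizontal bar), in UT, Ni-E, Ni-W and HCl3; each panel starts at 0 and has its own scale. Ni-E is the highest group in every panel; CDKN1A, FAS and GDF15 stay above both UT libraries in Ni-W and HCl3, while the MDM2 libraries of Ni-W and HCl3 fall between those of UT.

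The 3 members that act in cell death differed from each other. BBC3, which encodes the BH3-only protein PUMA, was scarce throughout (chr19:47724079-47736023, minus strand). UT had 3.64 and 3.25 RPKM, Ni-E 5.56 and 6.82, Ni-W 5.32 and 3.81, and HCl3 3.92 and 4.79. All treated libraries were above both UT libraries, and those of Ni-W and HCl3 overlapped each other. BBC3 rose in Ni-E by 0.82 ± 0.22 (1.77-fold, adjusted p = 0.00416). This call was the least firm among the members. It was lost when any one of the 4 libraries was left out (adjusted p from 0.0724 to 0.345), when replicates were blocked (0.82, adjusted p = 0.0946) and when each library's trends with GC and length were taken out (0.39, adjusted p = 0.268). The BBC3 transcript has 69.7% G and C, the highest share of the 9 members.

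BAX, the pore-forming protein of the outer mitochondrial membrane, was the most abundant member in all libraries but Ni-E replicate 1, where CDKN1A exceeded it, and it changed least with nickel (chr19:49458117-49465055, plus strand). BAX measured 118 and 99.3 RPKM in UT, and Ni-E had 125 and 126, Ni-W 96.2 and 84.8, and HCl3 107 and 106. The difference between Ni-E and UT was 0.16 ± 0.13, or 1.12-fold with a 95% interval of 0.944 to 1.33 (adjusted p = 0.482). BAX was lower in Ni-W than in Ni-E by less than 1.5-fold (−0.46 ± 0.10, adjusted p = 5.47e-05).

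FAS, the death receptor at the cell surface, was low in untreated cells, at 1.30 and 1.33 RPKM (chr10:90750288-90775542 in hg19, plus strand). Ni-E had 4.25 and 2.81, Ni-W 2.69 and 2.28, and HCl3 2.64 in both libraries. All 6 treated libraries exceeded both UT libraries, and neither Ni-W against Ni-E (−0.53 ± 0.24, adjusted p = 0.0714) nor HCl3 against Ni-W (0.09 ± 0.19) passed the test. The first of these was called with GC and length trends removed (−0.67, adjusted p = 0.0142) and without Ni-E replicate 2 (−0.83, adjusted p = 0.0155), and was −0.16 without Ni-E replicate 1 (adjusted p = 0.774). FAS rose by 1.41 ± 0.27 in Ni-E (2.66-fold, 95% interval 1.84 to 3.86, adjusted p = 1.44e-05), by 0.90 ± 0.25 in Ni-W (adjusted p = 0.00197) and by 0.99 ± 0.24 in HCl3 (adjusted p = 0.000225). In Ni-E the FAS call was lost without Ni-E replicate 1 (1.05) and kept without Ni-E replicate 2. The Ni-W call was lost with either Ni-W replicate left out (0.80 and 1.00) or UT replicate 1 (0.89). That in HCl3 was lost with either HCl3 replicate left out (1.00 and 0.98).

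The first part of FAS overlaps ACTA2, smooth muscle actin, which lies on the other strand, and the sources do not say whether reads were counted by strand, so some could belong to either gene. For ACTA2, UT had 35 and 21 reads, Ni-E 184 and 114, Ni-W 206 and 87, and HCl3 150 and 210. For FAS, UT had 143 and 101 reads, Ni-E 440 and 283, Ni-W 360 and 210, and HCl3 287 and 304. Both counts were thus higher in treated cells, and the part of ACTA2 in the FAS count was not tested. The antisense gene FAS-AS1 had 8 reads or fewer in every library.

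SESN1 and TP53I3 act on the redox state and metabolism. SESN1, a sestrin that restrains mTORC1 and oxidants, was highest in Ni-E (chr6:109307640-109415708 in hg19, minus strand). UT had 2.74 and 3.84 RPKM, Ni-E 5.39 and 5.01, Ni-W 3.62 and 3.71, and HCl3 3.59 and 3.70. Ni-E was above all other libraries, while Ni-W and HCl3 lay between the 2 UT libraries. The difference between Ni-E and UT, 0.54 ± 0.20, missed both limits (1.45-fold, 95% interval 1.11 to 1.91, adjusted p = 0.0602). It passed once GC and length trends were removed (0.61, adjusted p = 0.0131). The decrease from Ni-E to Ni-W was under 1.5-fold (−0.43 ± 0.16, adjusted p = 0.0239) and passed with the same trends removed (−0.61, adjusted p = 0.000595).

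TP53I3, an oxidoreductase also known as PIG3, was the 1 member called between the washed-out groups (chr2:24300303-24308085, minus strand). UT had 13.7 and 10.4 RPKM, Ni-E 21.0 and 19.4, Ni-W 9.82 and 8.31, and HCl3 13.8 and 15.6. TP53I3 rose in Ni-E by 0.70 ± 0.16 (1.62-fold, adjusted p = 0.000613), a call lost without UT replicate 2 (0.57, adjusted p = 0.112), without Ni-E replicate 1 (0.60, adjusted p = 0.224) and with GC and length trends removed (0.49, adjusted p = 0.0163, under 1.5-fold). It fell from Ni-E to Ni-W by 1.12 (−1.12 ± 0.15, adjusted p = 3.46e-12). Ni-W against UT did not pass (−0.41 ± 0.17, adjusted p = 0.0559). With GC and length trends removed it was lower than UT by under 1.5-fold (adjusted p = 0.000528). HCl3 was higher than Ni-W by 0.63 ± 0.14 (1.54-fold, 95% interval 1.28 to 1.86, adjusted p = 0.000109). This last call was lost without Ni-W replicate 2 (0.54, adjusted p = 0.0228), without HCl3 replicate 2 (0.58, adjusted p = 0.163) and with GC and length trends removed (0.49, adjusted p = 0.00104).

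GDF15, a secreted member of the TGF-beta superfamily that is released by stressed cells, changed most of all members (chr19:18496968-18499986 in hg19, plus strand). UT had 0.39 and 0.42 RPKM, Ni-E 10.3 and 6.17, Ni-W 1.83 and 1.48, and HCl3 2.53 and 2.4. Its rank of groups was that of CDKN1A, with Ni-E above HCl3, then Ni-W, then UT, and no groups overlapped. The UT values rest on 20 and 15 reads, while Ni-E had 477 and 283, Ni-W 113 and 62, and HCl3 125 and 124, so the folds against UT are less exact than those of the other members. GDF15 rose 19.5-fold in Ni-E (95% interval 11.6 to 32.7, log2 fold change 4.28 ± 0.38, adjusted p = 3.76e-26). After washout it remained 3.97-fold above UT in Ni-W (95% interval 2.01 to 7.83, adjusted p = 0.000514) and 5.82-fold above it in HCl3 (95% interval 3.22 to 10.5, adjusted p = 1.02e-07). The Ni-W call was lost without Ni-W replicate 1 (1.83, adjusted p = 0.192) and without Ni-W replicate 2 (2.12, adjusted p = 0.0608). From Ni-E to Ni-W GDF15 fell by 2.31 (−2.31 ± 0.29, adjusted p = 8.21e-14), and HCl3 differed from Ni-W by 0.55 ± 0.31 (adjusted p = 0.243).

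Over the list, 6 of the 9 members were called higher in Ni-E than in UT and 0 lower, where 3.75% of the 14478 genes tested were called higher and 2.05% lower. The 6 were CDKN1A, MDM2, BBC3, FAS, TP53I3 and GDF15. The median log2 fold change was 0.70 for the members and −0.00 for all genes tested. In all 9 members both Ni-E libraries exceeded both UT libraries in RPKM, but the share of all genes that did so was not counted. Without Ni-E replicate 1 the calls were 2, CDKN1A and GDF15. On log2(RPKM + 1), limma called 0 members and also 0 genes of the whole table. At an unadjusted p under 0.05 and at least 1.5-fold it had 6 members, and the share of all genes was not counted. edgeR, which like DESeq2 works on counts, called 6.

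Against UT, 3 members were called higher in Ni-W and 0 lower, beside 10.9% of 15826 genes called higher and 4.83% lower. In HCl3 the count was again 3 higher and 0 lower, beside 11.1% of 15766 genes called higher and 3.74% lower. CDKN1A, FAS and GDF15 were the 3 in both groups, which share the UT libraries. The medians of the 9 members were 0.12 and 0.21, against 0.01 for all genes in each comparison. With either Ni-W library left out, CDKN1A was the 1 member still called in Ni-W.

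Between exposed and washed-out cells the direction turned. In Ni-W 5 members were called lower than in Ni-E and 0 higher, beside 8.81% of 15989 genes called lower and 11.7% higher. They were CDKN1A, GADD45A, MDM2, TP53I3 and GDF15, and the median of the 9 was −0.68 against 0.02 for all genes. All 9 members had both Ni-W libraries below both Ni-E libraries, and here too the share of all genes was not counted. HCl3 and Ni-W differed in 1 member, TP53I3, which was higher in HCl3, beside 3.1% of 14956 genes called higher and 1.66% lower.

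**Figure D2:**
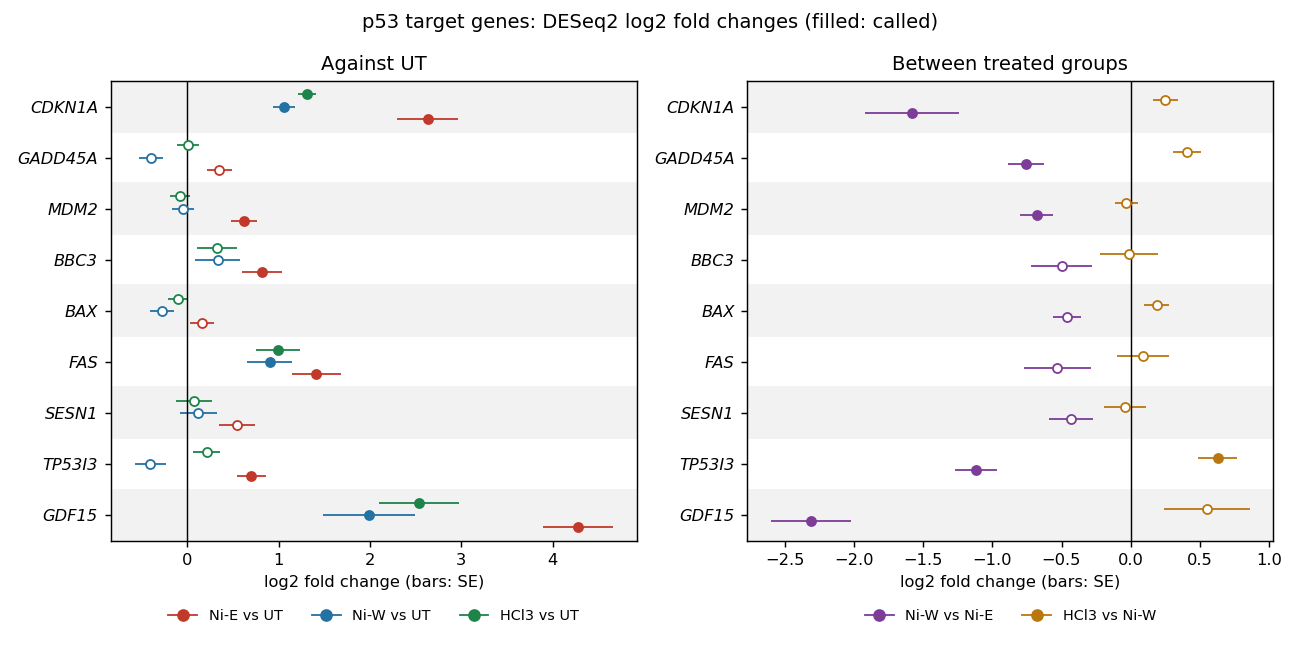
DESeq2 log2 fold changes of the 9 members (points) with their standard errors (bars), against UT on the left and between treated groups on the right; filled points were called at an adjusted p under 0.05 and at least 1.5-fold, open points were not. In Ni-E 6 points are filled and all 9 lie right of 0; in Ni-W against Ni-E all 9 lie left of 0 and 5 are filled.

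A wider list held 37 textbook p53 targets. In Ni-E 11 of the 34 that could be tested were called higher and 1 lower (KITLG, the ligand of the receptor KIT), with a median of 0.34, beside 3.75% of all genes called higher and 2.05% lower. By role, the higher calls comprised 2 of 5 arrest genes, 2 of 7 death genes, 1 of 4 repair genes, 3 of 6 redox and metabolic genes and 3 of 11 others. BTG2, an antiproliferative cofactor, went from 2.04 and 2.28 RPKM in UT to 7.40 and 7.22 in Ni-E (1.71 ± 0.19, adjusted p = 3.13e-17). SESN2, the sestrin related to SESN1, went from 8.05 and 7.11 to 15.3 and 15.5 (0.97 ± 0.13, adjusted p = 1.39e-10). DDB2 went from 5.05 and 4.45 to 10.8 and 10.7 (1.12 ± 0.18, adjusted p = 2.95e-08).

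Several of these were chosen for naming after their values were seen. PMAIP1, the BH3-only protein NOXA, went from 20.9 and 21.2 RPKM to 40.7 and 34.4 (0.78 ± 0.13, adjusted p = 5.78e-07). FDXR, a mitochondrial reductase, went from 24.4 and 19.0 to 45.1 and 39.3 (0.92 ± 0.15, adjusted p = 9.53e-08). CYFIP2, of a complex that remodels actin, and the kinase PLK3 were the others outside the naming rule (0.98 ± 0.14 and 0.77 ± 0.26). The PLK3 call was lost without any one library and with replicates blocked (0.77, adjusted p = 0.249). GLS2, a mitochondrial glutaminase, and SPATA18, which acts in mitochondrial quality control, had large but uncertain changes (1.96 ± 0.70 and 1.56 ± 0.54, adjusted p = 0.0443 and 0.0369). Both were below 0.6 RPKM in every library, and both calls were lost without any one library and with replicates blocked. In HCl3 GLS2 differed from UT by 1.47 ± 0.71 (adjusted p = 0.105), which edgeR, the joint fit of 8 libraries and limma on log2(RPKM + 0.1) called (adjusted p = 0.0141, 0.0475 and 0.0487).

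After washout, 5 of 34 genes of the wider list were called higher in Ni-W and 3 lower (SFN, SCO2 and KITLG), with a median of 0.04, beside 10.9% of all genes called higher and 4.83% lower. In HCl3 6 of 35 were called higher and 1 lower, SCO2, with a median of 0.02, beside 11.1% and 3.74% of all genes. KITLG lost its Ni-W call without UT replicate 2 (−0.45, adjusted p = 0.078) and without Ni-W replicate 1 (−0.49, adjusted p = 0.16). BTG2, DDB2, PERP, PHLDA3 and SPATA18 were higher in both groups, and DRAM1, an autophagy gene, was the other called in HCl3 (0.59 ± 0.09, 0.40 and under 1.5-fold with GC and length trends removed), beside 0.55 ± 0.10 in Ni-W. KITLG and DRAM1 are named outside the rule, after their values were seen. DDB2 was at 10.9 and 9.31 RPKM in Ni-W and 11.4 and 11.4 in HCl3, as high as in Ni-E. PERP, a membrane protein of desmosomes, had 7.37 and 7.70 RPKM in UT, and Ni-E had 16.7 and 13.95, Ni-W 13.9 and 14.6, and HCl3 14.8 and 13.96. PHLDA3, which restrains AKT, was at 10.7 and 8.96 in UT and between 16.2 and 21.2 in the 6 treated libraries. In these 3 genes the difference between Ni-W and Ni-E did not pass the test: DDB2 −0.08 ± 0.15, PERP −0.10 ± 0.12 and PHLDA3 −0.12 ± 0.15 (adjusted p = 0.721, 0.573 and 0.592). Of the 5 genes, SPATA18 lost its Ni-W call without any one library and its HCl3 call without UT replicate 1 or either HCl3 library. BTG2 lost its Ni-W call without Ni-W replicate 2 (0.88, adjusted p = 0.0531), and PHLDA3 without Ni-W replicate 1 (0.69, adjusted p = 0.0512). PHLDA3 also lost its Ni-E call without Ni-E replicate 1 (0.72, adjusted p = 0.0944).

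SCO2, a cytochrome oxidase assembly factor, was lower in both washed-out groups. UT had 15.9 and 11.2 RPKM, Ni-E 13.7 and 13.8, Ni-W 8.33 and 5.18, and HCl3 7.70 and 9.56 (−1.04 ± 0.24 and −0.71 ± 0.21 against UT, adjusted p = 0.000149 and 0.00301). Both calls were lost without UT replicate 1 (−0.76 and −0.43), that in Ni-W also without Ni-W replicate 2 (−0.75), and that in HCl3 with either HCl3 library left out (−0.56 and −0.87). In Ni-W against Ni-E, 10 of 35 were called lower and 0 higher, beside 8.81% of all genes called lower and 11.7% higher. SESN2 had the largest such change (−1.35 ± 0.12, adjusted p = 4.17e-27), followed by SFN, the 14-3-3 sigma protein that holds cells in G2 (−1.05 ± 0.12, adjusted p = 1.65e-16). SFN was also the 1 gene of the 34 tested that was called between HCl3 and Ni-W, beside 3.1% of all genes called higher and 1.66% lower. It was at 35.0 and 35.8 RPKM in HCl3 against 22.8 and 22.3 in Ni-W (0.64 ± 0.10, adjusted p = 7.92e-09).

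**Figure D3:**
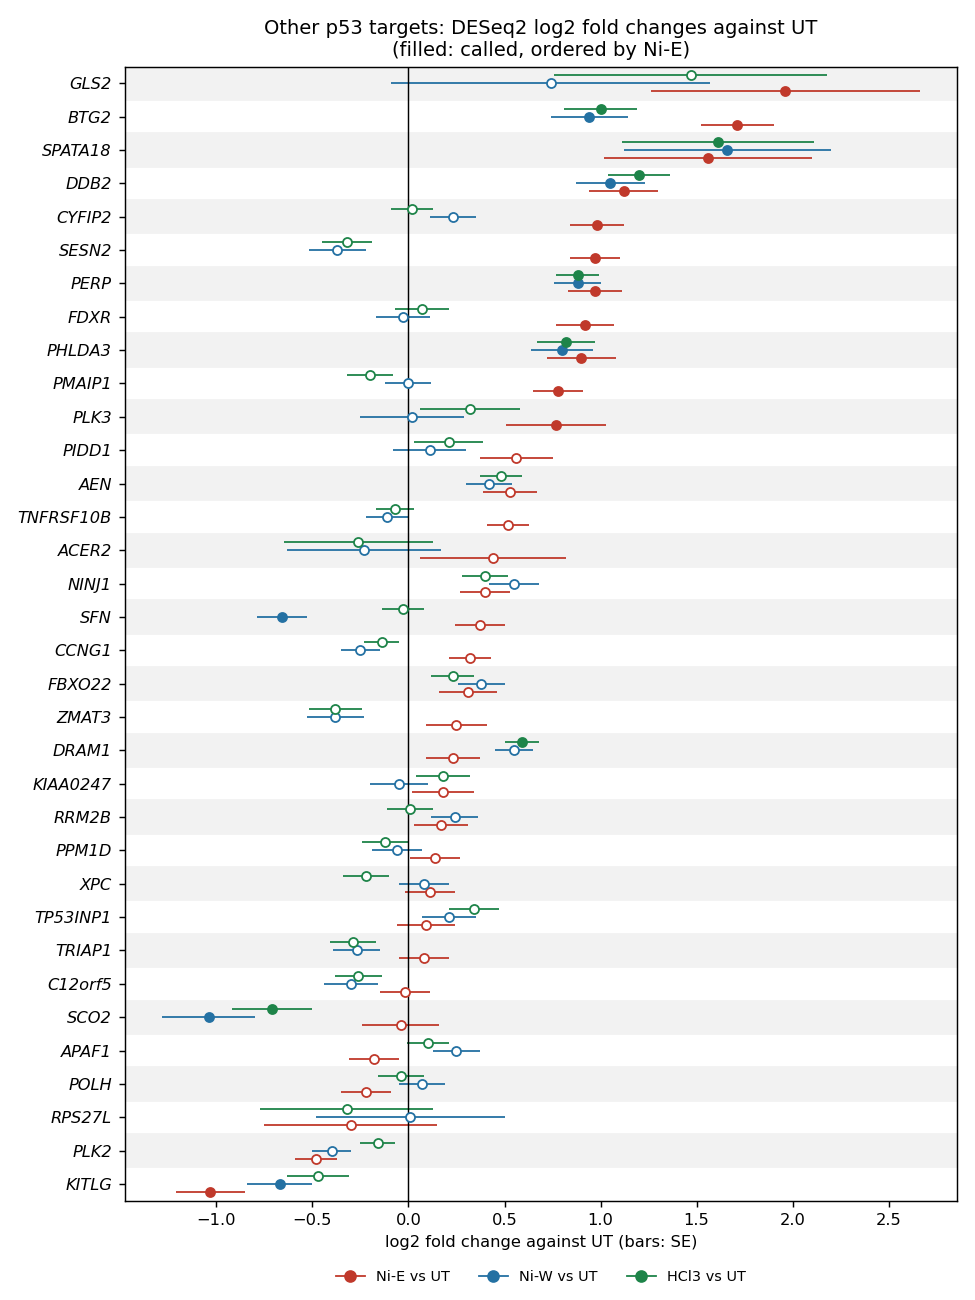
DESeq2 log2 fold changes against UT of the 34 further p53 targets tested in Ni-E (points, with standard errors as bars), ordered by the change in Ni-E; filled points were called, open points were not. BTG2, SPATA18, DDB2, PERP and PHLDA3 are filled in all 3 groups, whereas GLS2, CYFIP2, SESN2, FDXR, PMAIP1 and PLK3 are filled in Ni-E and open in Ni-W and HCl3.

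Of the relatives of p53, TP63 was listed at 0 in every library. TP73 was higher in Ni-W and HCl3 (0.72 ± 0.18 and 0.80 ± 0.17), at 3.45 to 3.91 RPKM against 2.30 and 1.88 in UT. Both were under 1.5-fold with GC and length trends removed (0.34 and 0.26), and the calls were lost in Ni-W without UT replicate 2 (0.57) or either Ni-W library (0.78 and 0.68) and in HCl3 without HCl3 replicate 2 (0.74). Protein and phosphorylation, through which p53 is mostly controlled, were not measured by these libraries.

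Of 16 listed regulators and relatives of p53, 15 could be tested, and in Ni-E 3 were called lower and 0 higher, beside 2.05% of all genes called lower and 3.75% higher. Their names were taken after the values were seen. MDM4, a partner of MDM2 that also restrains p53, was at 1.31 and 1.01 RPKM in UT and 0.53 and 0.74 in Ni-E (−0.93 ± 0.23, adjusted p = 0.00165). EP300, the acetyltransferase p300, was at 7.33 and 8.24 in UT and 4.56 and 5.92 in Ni-E (−0.63 ± 0.14, adjusted p = 0.000479). HIPK2, a kinase of p53, was at 6.04 and 6.54 in UT and 4.39 and 4.32 in Ni-E (−0.59 ± 0.12, adjusted p = 2.68e-05). MDM4 and EP300 were higher again in Ni-W than in Ni-E (0.87 ± 0.21 and 0.62 ± 0.13), but not with GC and length trends removed (0.38 and 0.18). In Ni-E the same correction left EP300 at −0.54 and HIPK2 at −0.41, under 1.5-fold. The MDM4 call was lost without UT replicate 1 (−0.72) or Ni-E replicate 1 (−0.73), that of EP300 without UT replicate 2 (−0.54) or Ni-E replicate 1 (−0.46), and that of HIPK2 without UT replicate 2 (−0.53) or Ni-E replicate 2 (−0.56). The damage kinases ATM, ATR, CHEK1 and CHEK2, also named outside the rule, were not called in any comparison. Some were lower than in UT by under 1.5-fold. ATR was lower in Ni-E (−0.38 ± 0.13, adjusted p = 0.0271) and HCl3 (−0.33 ± 0.11, adjusted p = 0.00734), and ATM in Ni-E (−0.35 ± 0.13, adjusted p = 0.0496). CHEK1 was lower in Ni-W (−0.31 ± 0.13, adjusted p = 0.041) and HCl3 (−0.37 ± 0.12, adjusted p = 0.00687).

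The washed-out groups differed in CDKN2A, whose locus encodes ARF, an inhibitor of MDM2, beside the CDK inhibitor p16. UT had 184 and 137 RPKM, Ni-E 172 and 194, Ni-W 107 and 87.1, and HCl3 143 and 151. Ni-W was below UT by 0.77 (−0.77 ± 0.14, adjusted p = 1.64e-06) and HCl3 was above Ni-W by 0.59 ± 0.10 (adjusted p = 5.34e-08), close to the 1.5-fold limit. The first call was lost without UT replicate 1 (−0.54), and the second without Ni-W replicate 2 (0.45) or HCl3 replicate 2 (0.54). The row joins the transcripts for p16 and ARF, which cannot be told apart here. TP53BP1, a binding protein of p53 in the damage response, is named after its values were seen. It was called higher in Ni-W, at 21.9 and 21.6 RPKM against 13.5 and 14.1 in UT (0.62 ± 0.10, adjusted p = 5e-08, 0.30 with GC and length trends removed). In HCl3 it was also higher than in UT, by under 1.5-fold (0.30 ± 0.10, adjusted p = 0.00868). It was not called between HCl3 and Ni-W.

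**Figure D4:**
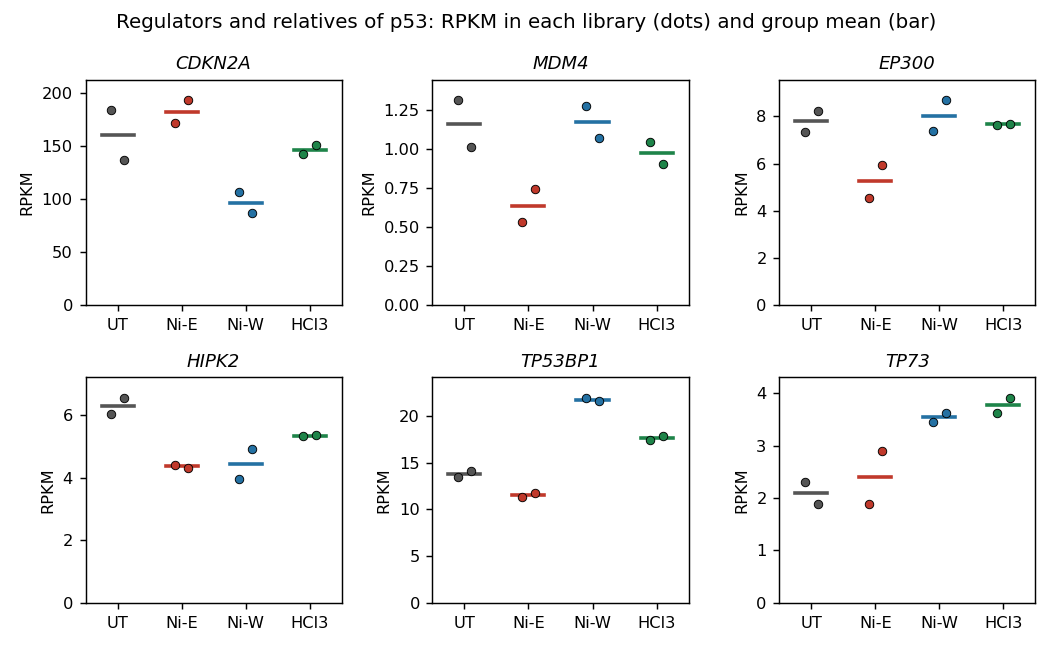
RPKM of 6 regulators or relatives of p53 in each library (dots, 2 per group) with the group mean (bar); each panel starts at 0 and has its own scale. MDM4, EP300 and HIPK2 are below UT in Ni-E, and CDKN2A is lowest in Ni-W.

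The genes whose profile over the 8 libraries was most like that of CDKN1A, by Pearson's r of log2 normalized counts among 12015 genes, were PPAP2C (0.9980), GDF15 (0.9913) and PRR5 (0.9897). Those most like MDM2 were FBXO18 (0.9834), DNAJC18 (0.9830) and POC1B (0.9775). Among the members, r with CDKN1A was 0.94 for FAS, 0.84 for BBC3, 0.79 for SESN1, 0.76 for MDM2, 0.71 for TP53I3, 0.57 for GADD45A and 0.45 for BAX. The 8 points form 4 pairs of replicates and the values are a description. PPAP2C, a lipid phosphatase, went from 7.09 and 6.82 RPKM in UT to 13.4 and 12.4 in Ni-E, with 8.73 to 9.75 in washed-out cells.

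The libraries carried the keratins KRT8 and KRT18 (144 to 310 RPKM) together with the mesenchymal genes VIM, CDH2 and COL1A1 (54.1 to 1527 RPKM), while the epithelial cadherin CDH1 was at 0.11 RPKM or less, and KRT5 and KRT14 at 0.05 or less. Of the epithelial label, 2 of 7 markers were thus plainly present and EPCAM was low (0.95 to 1.79 RPKM). The leukocyte genes PTPRC and CD3E and the endothelial genes PECAM1, CDH5 and VWF were at 0.1 RPKM or less, and CD68, a lysosomal protein of macrophages and other cells, was at 14.3 to 21.8. Of the markers, FN1, fibronectin, had 4.13 to 6.99 RPKM in UT and Ni-E and 82.1 to 121 in Ni-W and HCl3, and the keratin KRT19 0.02 or less and 0.53 to 0.78. The other mesenchymal markers took another course: for VIM, UT had 1417 and 1518 RPKM, Ni-E 992 and 827, Ni-W 816 and 992, and HCl3 1515 and 1527. For COL1A1, UT had 390 and 338, Ni-E 178 and 337, Ni-W 218 and 245, and HCl3 431 and 454, and CDH2 was between 54.1 and 83.5 in all libraries. The part of these markers in the levels above was not tested. In bulk RNA, fewer cells that express a gene and less RNA per cell cannot be told apart.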

How the data were processed

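RNA-Seq libraries were made from total RNA of BEAS-2B cells with an Illumina TruSeq kit. The authors aligned the reads to hg19 with STAR (version 2.4 per the labels), removed reads with several alignments, and quantified genes with BioWardrobe. Each deposited table holds the raw read count of each gene and its RPKM, both as the authors computed them from 1 library. Use of strand is not stated.

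Groups were taken from the labels. Counts were tested with DESeq2 1.42.0 in R 4.3.3 (two-sided Wald test, default independent filtering, chosen after a fit tuned to 0.05 had been seen, Benjamini-Hochberg adjustment over all genes), each fit holding the 4 libraries of 1 comparison, with calls at an adjusted p under 0.05 and at least 1.5-fold. The script was tested on simulated data. Alternatives were edgeR 4.0.16, limma 3.58.1 on RPKM at a log2 scale (pseudocount 1 or 0.1), TMM size factors, a mean count of at least 10, all 8 libraries in one fit, no fold threshold, the replicate suffix as a block, removal of each library's trends with GC content and length, and leaving out each library. GC content and length were known for 98.3% of genes.

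The members and lists were chosen with earlier results of these data known. Named beyond the members were listed genes called the same way in both washed-out groups and the 3 largest changes in each comparison; others are marked in the text. The result of 1 listed gene is not reported here. Profiles were compared where the mean count reached 50. The motif was counted with at most 3 mismatches in all and, as a stricter reading, with at most 1 in each half-site; the looser count was put first after a trial of the stricter rule had missed a known site. Coordinates of genes are hg19, from the deposited tables, and those of promoter windows GRCh38.p14.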

Additional observations from a re-analysis of the deposited data

Results flagged for a closer look

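Ni-W and HCl3 carry the same treatment text, and 3 genes of the p53 lists differed between them by the DESeq2 fit with Benjamini-Hochberg adjustment. These were 1 of 9 members, 1 of 34 wider targets and 1 of 15 regulators tested. Of all 14956 genes tested, 3.1% were called higher in HCl3 and 1.66% lower. TP53I3 was higher in HCl3 by 0.63 on the log2 scale, CDKN2A by 0.59 and SFN by 0.64. In each gene both HCl3 libraries were above both Ni-W libraries. All 3 changes were under 1.5-fold with GC and length trends removed (0.49, 0.47 and 0.44).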

How the results depend on the processing

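A mean count of at least 10 changed no call or direction of a named gene, nor did independent filtering tuned to an adjusted p of 0.05, which was fitted first; the DESeq2 default was taken in its place after its results were seen. TMM size factors ended 1 call (HIPK2, Ni-E against UT), edgeR 1 (CDKN2A, HCl3 against Ni-W) and the joint fit of 8 libraries both of these. In HCl3 against UT, edgeR, the joint fit and limma at a pseudocount of 0.1 each added GLS2. edgeR also called GLS2 in Ni-W against Ni-E, where the main fit did not (−1.23 ± 0.61, adjusted p = 0.0961). Of 648 member values under alternatives, 575 kept direction and side of the limits, 40 lost their call, 5 gained one and 28 changed sign, all of these from differences that were not called. Members called in Ni-E against UT were 0 with limma at either pseudocount (6 and 7 at an unadjusted p under 0.05 and 1.5-fold), and 2 to 5 without 1 library; those of the wider list were 0 with limma (9 and 13 unadjusted), 8 to 10 without 1 library and 19 with no fold threshold. In Ni-W against UT, members were 1 to 3 without 1 library, and the wider list 5 with limma, 5 to 7 without 1 library and 16 with no fold threshold. The HCl3 counts against UT were 2 to 3 members and 5 to 8 wider targets without 1 library, and 14 with no fold threshold. Ni-W against Ni-E gave 4 to 6 members and 8 to 11 wider targets without 1 library, 7 members with GC and length trends removed and 17 wider targets with no fold threshold. HCl3 against Ni-W gave 0 members with limma (1 unadjusted) and with trends removed (0 unadjusted), 0 to 1 without 1 library, and 3 with no fold threshold; the wider list gave 0 with trends removed (0 unadjusted), 1 without any 1 library, and 4 with no fold threshold. The cause of these shifts was not tested. For the unadjusted counts, the share of all genes at the same limits was not counted.

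Signs turned as follows. With GC and length trends removed, with or without the block: BAX −0.03 (Ni-E against UT), SESN1 −0.02 and −0.01 (Ni-W against UT), BBC3 −0.27 and −0.28, GADD45A −0.14 and TP53I3 −0.06 (HCl3 against UT), MDM2 0.08 and SESN1 0.03 (HCl3 against Ni-W). Without 1 library, ranges that crossed 0 were −0.17 to 0.08 for MDM2 (0.01 in the other turn) and −0.10 to 0.37 for SESN1 (Ni-W against UT); −0.20 to 0.04 for MDM2, −0.23 to 0.04 for BAX, −0.04 to 0.04 for GADD45A (also −0.00) and −0.15 to 0.32 for SESN1 (HCl3 against UT); and −0.09 to 0.03 for MDM2, −0.25 to 0.28 for BBC3 (also 0.13) and −0.01 to 0.20 for FAS (HCl3 against Ni-W). For DDB2, PERP and PHLDA3 in Ni-W against Ni-E the ranges were −0.20 to 0.02, −0.25 to 0.05 and −0.30 to 0.07. With the replicate block alone, BBC3 was 0.00 (HCl3 against Ni-W).

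The suffix is no sure pairing: deviations of same-suffix libraries had r from −0.145 to 0.212. With the replicate block, members called were 5, 3, 3, 5 and 1 in the 5 comparisons, in the order of the report. The pairing crossed, added after seeing the data, gave 6 in Ni-E and 3 in HCl3 against UT. With 2 libraries a group and 15 to 20 reads of GDF15 in UT, small changes of low genes could not be resolved at this depth.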
